A study of Mus musculus with 11 samples.

Results

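The matrix metalloproteinases (MMP), their tissue inhibitors (TIMP), the ADAMTS proteases, the ADAMTS-like proteins (ADAMTSL) and the lysyl oxidases (LOX) were followed in embryonic stem cells (mESCs) and embryonic fibroblasts (MEFs) of the mouse with and without Atxn7l3. Members were the protein-coding genes whose symbol is Mmp, Timp, Adamts or Adamtsl followed by a number, or Lox or Loxl1 to Loxl4. This gave 54 genes of 34570 listed, of which 19124 are protein-coding: 21 MMP, 4 TIMP, 19 ADAMTS, 5 ADAMTSL and 5 LOX genes. The mESC data listed 50 of them and the MEF data 53. Adamts16, Adamtsl2, Mmp20 and Mmp27 were listed for MEFs only and Mmp21 for mESCs only, and Mmp1a was left out because its row carries another biotype. The filter on low counts left 38 members to test in mESCs and 44 in MEFs; Adamts13, Adamts18, Adamts19, Mmp1b, Mmp8 and Timp4 were too low in both.

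RNA-seq libraries of 2 WT and 3 Atxn7l3-/- mESC lines and of 3 WT and 3 Atxn7l3-/- MEF cultures were analysed, all of DBA/2 x C57BL/6 strain and without any treatment. A further WT mESC dataset had been left out by the authors because it stood apart from the other WT data in a principal component analysis, and it was not analysed here. ATXN7L3 is the adaptor that activates the deubiquitylation module of the SAGA coactivator complex, which removes ubiquitin from histone H2B, and the comparison asks how transcript levels change when it is lost. WT and homozygous null lines came from single blastocysts or embryos of heterozygous intercrosses. The mESCs were kept on feeder cells for their first passages and then without feeders in LIF, 15% foetal calf serum and the kinase inhibitors PD0325901 (1 uM) and CH99021 (3 uM). The MEFs came from E10.5 embryos without head and gut and were grown in DMEM with 10% serum; the null cells were described in the study as round and MEF-like. Medium, age and cell type therefore cannot be told apart between mESCs and MEFs.

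MMPs are secreted or membrane-bound zinc proteases that cleave collagens, gelatin, laminin and other matrix proteins, and TIMPs block their active site. ADAMTS proteases cleave large proteoglycans, trim procollagens or process other secreted proteins. ADAMTS-like proteins lack the protease domain and associate with fibrillin microfibrils, and lysyl oxidases crosslink collagen and elastin. Embryonic fibroblasts are a main producer of these proteins.

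Library totals ranged from 34515342 to 49602605 counts, so that 3 counts, the floor used here, correspond to between 0.0605 and 0.0869 CPM (counts scaled to library size). All 8 pluripotency markers were detected in the mESCs, with summed levels of 4933 to 5964 CPM, and all 10 fibroblast markers in the MEFs. Atxn7l3 itself was at 222 and 223 CPM in WT mESCs and at 0.976 to 3.91 CPM in Atxn7l3-/- mESCs. In MEFs it was at 79.7 to 104 CPM in WT and still at 49.2 to 67.3 CPM in Atxn7l3-/- cells, without overlap. The log2 fold change of -0.74 did not pass in edgeR (adjusted p = 0.0715) and passed in DESeq2 (adjusted p = 0.0227). With GC correction it was -0.19 (adjusted p = 0.522, edgeR), so the RNA does not mark the MEF genotype as sharply. The study reported that the ATXN7L3 protein could not be detected in the null cells of either type. Summed mesothelial markers were 18.0 to 44.3 CPM in WT MEFs and 5399 to 7660 CPM in Atxn7l3-/- MEFs, where 6 of 8 passed the test as higher. Summed smooth muscle markers were 7856 to 13122 CPM in WT MEFs against 1075 to 4896 CPM, with 1 of 5 markers passing as lower in edgeR, and 5 of 5 with the replicate number as a block and in DESeq2. These levels moved with genotype beside every MEF result below and their part in them was not tested. In bulk RNA, fewer cells of a type and less RNA per cell cannot be told apart. The Y-linked Ddx3y was at 90.6 and 193 CPM in WT mESCs and at 3.46, 0.882 and 225 CPM in Atxn7l3-/- mESCs. In MEFs it was at 0.218 CPM in WT replicate 3 and at 59.2 to 241 CPM in the other libraries. Y-linked RNA was thus not balanced between the genotypes, and its part in the results below was not tested.

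Promoters of the MMP genes that lie side by side on chromosome 9 are shown first. The reason is that 4 members of this cluster had the largest positive fold changes of all members tested in MEFs. Among these, Mmp27 passed the filter on low counts only through the Atxn7l3-/- libraries, with 7 counts or fewer in every WT library. RefSeq promoters (GRCm38.p6) were at hand for 35 of the 54 members. Each line gives the 120 bases before the transcription start on the gene's strand, 5′ to 3′. Capitals mark TGAGTCA or its reverse complement TGACTCA, the consensus bound by AP-1 (FOS and JUN factors), and TATAAA, the TATA box.
Mmp13 (chr9:7272394-7272513, plus strand): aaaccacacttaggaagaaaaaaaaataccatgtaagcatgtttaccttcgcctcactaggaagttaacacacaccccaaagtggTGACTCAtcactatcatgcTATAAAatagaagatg
Mmp12, first start (chr9:7344277-7344396, plus strand): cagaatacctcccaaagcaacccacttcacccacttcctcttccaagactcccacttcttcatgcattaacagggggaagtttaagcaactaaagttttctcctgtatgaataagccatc
Mmp12, second start (chr9:7347254-7347373, plus strand): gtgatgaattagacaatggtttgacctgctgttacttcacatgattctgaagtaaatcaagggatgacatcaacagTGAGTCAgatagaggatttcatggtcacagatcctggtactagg
Mmp1b (chr9:7388027-7388146, minus strand): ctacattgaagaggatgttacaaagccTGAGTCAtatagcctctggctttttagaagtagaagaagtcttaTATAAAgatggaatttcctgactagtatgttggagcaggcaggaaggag
Mmp3 (chr9:7445702-7445821, plus strand): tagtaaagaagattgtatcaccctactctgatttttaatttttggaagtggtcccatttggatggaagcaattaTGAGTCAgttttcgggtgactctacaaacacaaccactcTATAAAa
Mmp10 (chr9:7502222-7502341, plus strand): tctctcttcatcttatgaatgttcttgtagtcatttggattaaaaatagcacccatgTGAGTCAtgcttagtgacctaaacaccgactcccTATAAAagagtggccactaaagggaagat
Mmp8 (chr9:7558309-7558428, plus strand): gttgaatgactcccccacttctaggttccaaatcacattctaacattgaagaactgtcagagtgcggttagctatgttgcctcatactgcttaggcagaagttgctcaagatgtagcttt
Mmp27 (chr9:7571276-7571395, plus strand): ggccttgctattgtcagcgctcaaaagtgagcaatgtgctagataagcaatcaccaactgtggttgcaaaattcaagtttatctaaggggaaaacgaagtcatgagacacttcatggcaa
Mmp20 (chr9:7628111-7628230, plus strand): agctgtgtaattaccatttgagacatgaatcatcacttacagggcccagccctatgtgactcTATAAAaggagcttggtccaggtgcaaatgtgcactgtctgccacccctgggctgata

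Within 250 bases before a start, TGAGTCA on either strand was present in 5 of the 35 members with a promoter: Mmp3, Mmp10, Mmp12, Mmp13 and Mmp1b. All of these are in the chromosome 9 cluster, and the motif began 35 to 93 bases before the start. Over all 27025 genes of the RefSeq set, 5.16% had it. TATAAA on either strand was present in 8 of the 35 members, always on the gene's strand, and in 14.3% of all genes. Besides cluster genes it was found 32 bases before the start of Adamts1, 30 bases before that of Adamtsl2 and 70 bases before that of Mmp21. RefSeq gives Mmp12 a pair of starts, and only the second has TGAGTCA. Mmp8, Mmp27 and the first start of Mmp12 have neither motif in the stretch shown, and Mmp20 has TATAAA alone. A match describes letters only and is no evidence of binding.

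Baseline levels were compared first. In WT MEFs 32 of 45 members tested were higher than in WT mESCs and 0 were lower (edgeR quasi-likelihood test in 1 fit of all libraries, Benjamini-Hochberg adjusted p of 0.05 or less; 1 lower at an unadjusted p under 0.05, 0 in DESeq2), while 53.9% of all genes tested passed, 26.8% as higher. Without a replicate the count ran from 25 to 34, and 2 members, Mmp24 and Mmp25, passed as lower with the replicate number as a block. Members took 0.975% to 1.03% of counts in WT MEFs and 0.0312% to 0.0356% in WT mESCs.

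Per kilobase of median transcript length, the levels in WT MEFs were led by the inhibitors Timp3, which binds to the matrix, and Timp2, at 1004 ± 368 and 841 ± 129 CPM per kb (SD, n = 3). Lox, which crosslinks collagen and elastin, followed with 574 ± 125, then the gelatinase Mmp2 with 564 ± 379 and the membrane-bound collagenase Mmp14 with 497 ± 163. None of these neighbours in the order was separated by all its libraries. In WT mESCs the order was led by Mmp11, a stromelysin, with 38.9 ± 7.69 CPM per kb (n = 2) and Timp1 with 38.6 ± 13.1, which overlapped. Median transcript lengths under 1 kb for Adamtsl3, Adamtsl4, Loxl3, Mmp9, Mmp11, Mmp23 and Timp1 raise their levels on this scale. Mmp2 (1006.5 bases) and Mmp14 (1137 bases) lie just above this length, against 2021 for Timp3, 2213.5 for Timp2 and 4036 for Lox. Adamts9, which cleaves versican, had 43.5 and 69.6 CPM in WT mESCs and 68.0, 48.0 and 24.3 CPM in WT MEFs, scaled within each cell type. Its log2 difference was 0.02 ± 0.46 (SE; adjusted p = 0.978, edgeR), and the sign turned under a stricter filter, the block and GC correction. The stromelysin Mmp3 had 0 counts in both WT mESC libraries and 60 to 374 counts in WT MEFs.

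**Figure D1:**
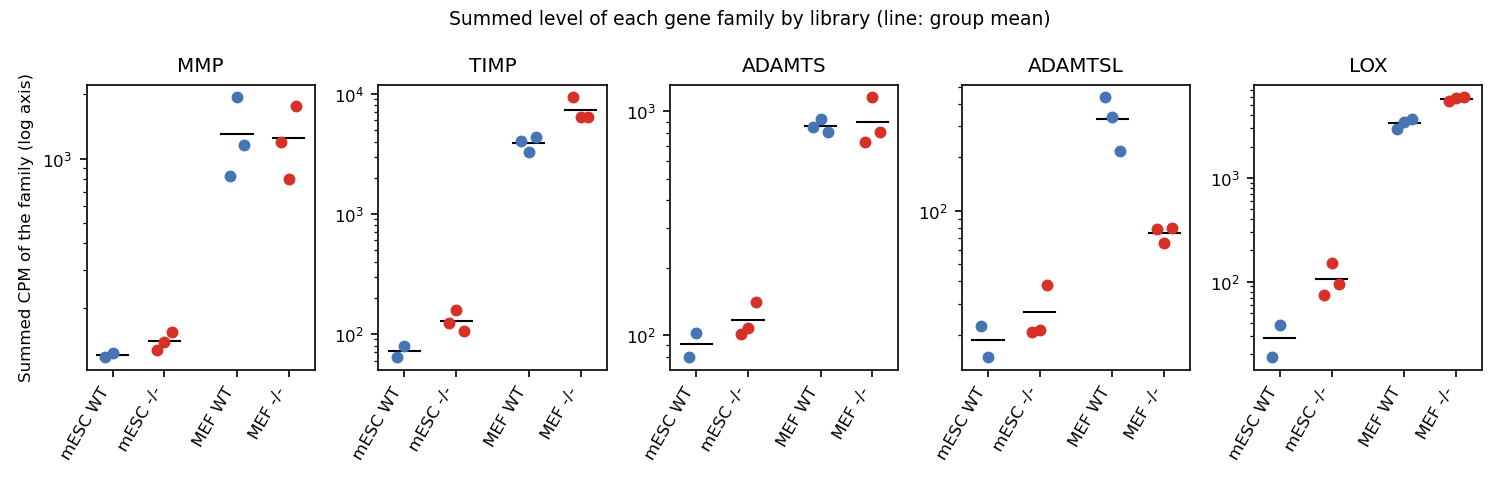
Summed CPM of each family in every library on log axes, with WT in blue, Atxn7l3-/- in red and a line at the group mean; CPM are scaled within each cell type. The TIMP and LOX sums of Atxn7l3-/- MEFs lie above all WT MEF libraries and the ADAMTSL sums lie below them, while the MMP and ADAMTS sums overlap.

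In Atxn7l3-/- MEFs, 8 of 44 members tested fell and 0 rose (edgeR without the replicate block, 14 and 7 at an unadjusted p under 0.05). The members that fell were 3 ADAMTS-like genes (Adamtsl2, Adamtsl3, Adamtsl4), 3 proteoglycan-cleaving ADAMTS genes (Adamts4, Adamts8, Adamts15) and 2 membrane-type MMPs (Mmp15, Mmp17). Over all genes tested 9.41% passed, 4.39% as lower. Adamtsl2, Adamts8 and Adamts15, at 11 counts or fewer in every Atxn7l3-/- library, passed the filter on low counts only through the WT libraries, and with at least 10 counts required in every library 4 of 35 members passed: Adamtsl3, Adamtsl4, Mmp15 and Mmp17. The median log2 fold change of the 44 members was -0.55, beside -0.06 over all genes. Libraries of the 2 genotypes did not overlap for 21 members, of which 6 were higher and 15 lower, where 39.8% of all genes had no overlap in either direction. With the replicate number as a block 12 members passed, 9 as lower and 3 as higher, against 14.0% of all genes. DESeq2 called 21 members, 7 higher and 14 lower, against 24.8%. The count rested on single libraries: it was 4 without WT replicate 1 or WT replicate 2, 1 without WT replicate 3, 1 without Atxn7l3-/- replicate 1 or 2, and 12 without Atxn7l3-/- replicate 3. Correction for GC content gave 6: Adamts4 (adjusted p = 0.0507), Mmp15 (0.0674) and Mmp17 (0.225) no longer passed, and Adamts7 passed as higher (edgeR).

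**Figure D2:**
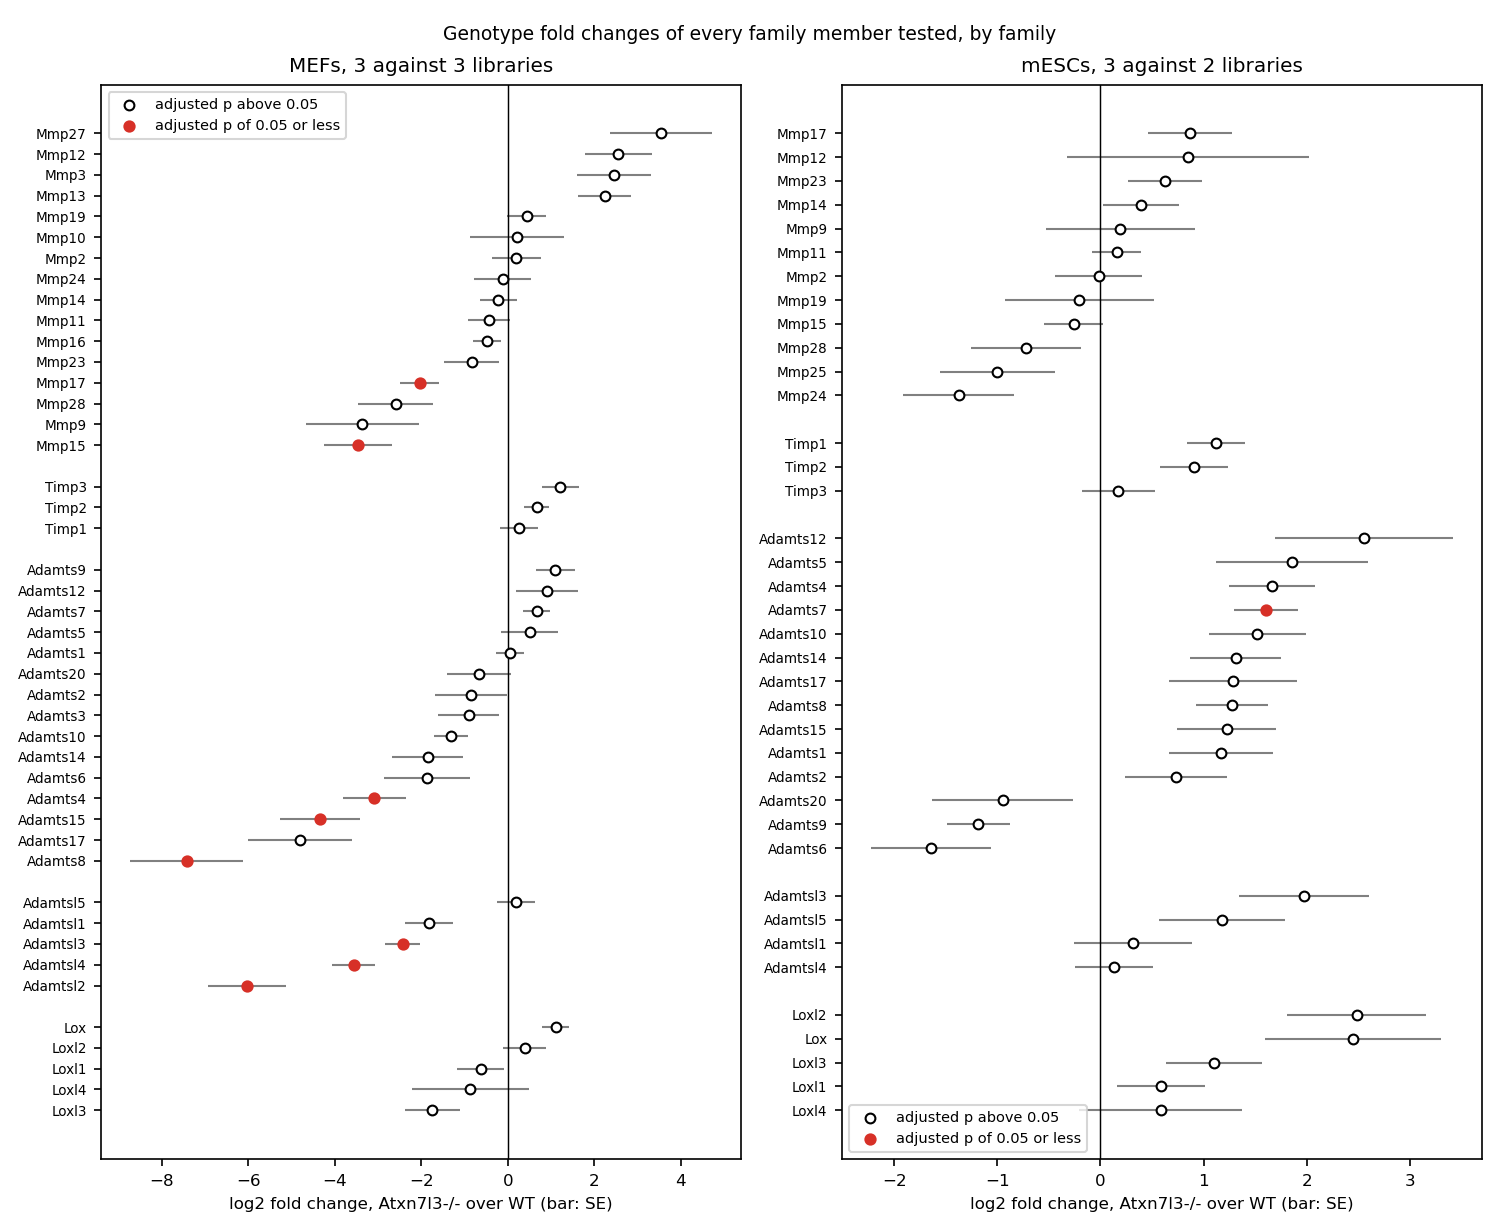
Log2 fold change of Atxn7l3-/- over WT with its standard error for each of the 44 members tested in MEFs (left) and 38 in mESCs (right), grouped by family; red marks members with an adjusted p of 0.05 or less. In these fits without the replicate block, the 8 red points in MEFs all lie left of 0. In mESCs the single red point is Adamts7.

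The ADAMTS-like family showed the clearest pattern. Summed over its 5 genes it was at 434, 335 and 217 CPM in the WT MEF libraries and at 79.0, 65.8 and 79.7 CPM in the Atxn7l3-/- libraries. Adamtsl3 (chr7:82335694-82614450), the most abundant of them, had 309, 148 and 117 CPM in WT and 42.8, 32.5 and 31.0 CPM in Atxn7l3-/- MEFs. The Atxn7l3-/- libraries lay close together and below every WT library, and the log2 fold change was -2.43 ± 0.40 (SE; adjusted p = 0.0221, edgeR). Adamtsl4 (chr3:95676201-95687917), a fibrillin-binding protein of the eye's zonule, had 32.0, 80.7 and 37.4 CPM in WT and 3.21, 3.13 and 6.37 CPM without Atxn7l3. It fell by 3.56 ± 0.50 on the log2 scale (adjusted p = 0.0158, edgeR).

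Adamtsl2 (chr2:27079379-27108981), whose product binds the TGF-beta carrier LTBP1, was almost lost. It had 499, 100 and 186 counts in the WT libraries and 7, 1 and 2 counts in the Atxn7l3-/- libraries, a log2 fold change of -6.02 ± 0.91 (adjusted p = 0.0177, edgeR). Of the other 2 members of the family, Adamtsl1 was lower in all Atxn7l3-/- libraries without passing (log2 fold change -1.82 ± 0.56, adjusted p = 0.0821) and Adamtsl5 overlapped (0.18 ± 0.44, adjusted p = 0.802).

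Among the 7 ADAMTS genes known to cleave proteoglycans, 3 fell and 4 did not pass, where 4.39% of all genes passed as lower; Adamts8 and Adamts15 had entered the test only through their WT counts. Adamts4 (chr1:171250421-171260637), known as aggrecanase-1, had 43.0, 19.1 and 26.3 CPM in WT and 4.50, 0.753 and 5.14 CPM in Atxn7l3-/- MEFs. Its log2 fold change was -3.09 ± 0.73 (adjusted p = 0.0472, edgeR), close to the threshold. Adamts8 (chr9:30942562-30963838) had 28.9, 1.17 and 9.01 CPM in WT, where WT replicate 2 stood low, and 3 counts in each Atxn7l3-/- library, which is at the floor. Pooled over the libraries this was a ratio of 203 between WT and Atxn7l3-/- (95% counting interval 107 to 444), with an adjusted p of 0.0245 (edgeR). Adamts15 (chr9:30899155-30922452) lies next to Adamts8 and had 138, 161 and 37 counts in WT and 11, 3 and 2 counts in Atxn7l3-/- MEFs (log2 fold change -4.34 ± 0.92, adjusted p = 0.0392, edgeR). An antisense RNA overlaps 9752 bases of Adamts8, and the use of strand in counting was not given in the sources used here.

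Adamts1 and Adamts5, neighbours on chromosome 16, did not pass. Adamts5, or aggrecanase-2, had 132, 185 and 192 CPM in WT and 77.4, 507 and 139 CPM in Atxn7l3-/- MEFs, so the Atxn7l3-/- libraries spanned the WT range. Adamts1 was at 231 to 300 CPM in WT and 185 to 415 CPM in Atxn7l3-/- cells (log2 fold change 0.06 ± 0.33, adjusted p = 0.916, edgeR), and the sign of this value changed with the replicate block. Adamts9 had 68.0, 48.0 and 24.3 CPM in WT and 132, 112 and 56.8 CPM in Atxn7l3-/- MEFs, overlapping only through Atxn7l3-/- replicate 3 (1.10 ± 0.45, adjusted p = 0.149, or 0.0271 with the replicate block, edgeR).

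Several further ADAMTS genes were below every WT library in all 3 Atxn7l3-/- libraries without passing the test. Adamts17, one of the ADAMTS genes with a role in the fibrillin zonule, had 117, 471 and 45 counts in WT and 8, 3 and 12 counts in Atxn7l3-/- MEFs (log2 fold change -4.80 ± 1.20, adjusted p = 0.0534, edgeR). It had entered the MEF test only through its WT counts. Adamts10, which binds fibrillin-1, had 68.3, 127 and 116 CPM in WT and 32.4, 28.0 and 65.3 CPM in Atxn7l3-/- cells (-1.31 ± 0.40, adjusted p = 0.0813, edgeR). Adamts16 fell short of the filter on low counts, with 92, 121 and 7 counts in WT and 2, 0 and 2 counts in Atxn7l3-/- MEFs. Adamts18 had 58, 30 and 8 counts in WT and 0 in every Atxn7l3-/- library, which makes it at least 29.3-fold lower against a floor of 3 counts over the group. Adamts19 had 4, 13 and 1 counts in WT and 0 in every Atxn7l3-/- library, at least 5.49-fold lower on the same basis. The 3 procollagen N-propeptidases, Adamts2, Adamts3 and Adamts14, did not pass either.

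**Figure D3:**
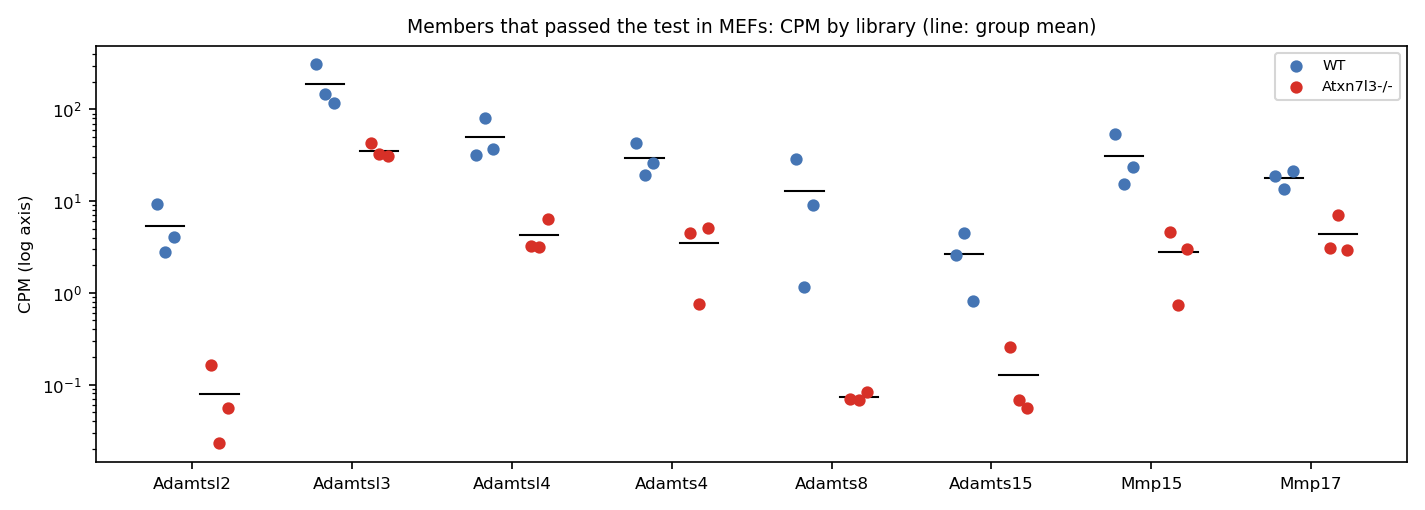
CPM on a log axis of the 8 members that fell in Atxn7l3-/- MEFs, with 3 WT libraries (blue) and 3 Atxn7l3-/- libraries (red) a gene and lines at the group means. No Atxn7l3-/- library reached the lowest WT library of its gene; Adamtsl2 and Adamts8 lie near 0.1 CPM or below except for Adamtsl2 in Atxn7l3-/- replicate 1 at 0.162 CPM.

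Of the 16 MMPs tested in MEFs 2 fell (edgeR), where 4.39% of all genes passed as lower. Mmp15 (chr8:95352268-95375080), a transmembrane MMP, had 53.9, 15.2 and 23.8 CPM in WT and 4.62, 0.730 and 3.02 CPM in Atxn7l3-/- MEFs (log2 fold change -3.47 ± 0.79, adjusted p = 0.0436, edgeR). Mmp17 (chr5:129584169-129611099), which is held in the membrane by a GPI anchor, had 18.7, 13.4 and 21.3 CPM in WT and 3.05, 7.0 and 2.97 CPM in Atxn7l3-/- cells (-2.03 ± 0.45, adjusted p = 0.0414, edgeR). All 5 membrane-type MMPs tested had negative fold changes, as had 8376 of the 15958 genes tested, and the libraries did not overlap for 2. The value of Mmp24 (-0.12) turned to 0.37 with GC correction and to 0.45 with GC correction and the block. It rose to as much as 0.34 when 1 library was left out. For Mmp14, the most abundant membrane-type MMP, the libraries overlapped: 337, 653 and 533 CPM in WT and 319, 285 and 703 CPM in Atxn7l3-/- MEFs. The gelatinase Mmp2 likewise overlapped, at 276, 897 and 356 CPM against 660, 278 and 810 CPM.

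On chromosome 9, Mmp13, Mmp3 and Mmp27 were higher in every Atxn7l3-/- MEF library than in any WT library. Mmp13, a collagenase, had 1.52, 6.55 and 3.75 CPM in WT and 13.9, 28.1 and 13.5 CPM in Atxn7l3-/- MEFs. Its log2 fold change of 2.23 ± 0.60 missed the threshold (adjusted p = 0.0632) and passed with the replicate block (0.0253, edgeR). Mmp3 had 7.02, 6.22 and 1.31 CPM in WT and 20.7, 51.2 and 7.53 CPM without Atxn7l3, a log2 fold change of 2.45 ± 0.86 (adjusted p = 0.108, or 0.0250 with the replicate block, edgeR). Mmp27 stayed low throughout, with 0, 7 and 1 counts in WT and 34, 56 and 12 counts in Atxn7l3-/- MEFs (adjusted p = 0.0965, edgeR). It had entered the test only through its Atxn7l3-/- counts.

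For the macrophage elastase Mmp12 and the stromelysin Mmp10 of the same cluster the libraries of the genotypes overlapped. Mmp12 had 48, 76 and 90 counts in WT and 565, 623 and 74 counts in Atxn7l3-/- MEFs, so that Atxn7l3-/- replicate 3 was at the WT level. The Mmp12 log2 fold change of 2.56 did not pass in edgeR and passed as higher in DESeq2. Summed macrophage markers were 1034, 1205 and 596 CPM in WT and 5565, 2042 and 793 CPM in Atxn7l3-/- MEFs, likewise lowest among Atxn7l3-/- cells in replicate 3. This sum was carried by the lysozyme gene Lyz2, at 480, 603 and 314 CPM in WT and 4691, 1816 and 660 CPM in Atxn7l3-/- MEFs. Of the 11 macrophage markers tested 5 had positive and 6 negative fold changes (median log2 -0.04), and the complement gene C1qa was at 40.9 to 77.1 CPM in WT and at 59.0, 4.61 and 5.14 CPM in Atxn7l3-/- MEFs. The part of these markers in the Mmp12 level was not tested. Mmp12 and Mmp1b share 1261 bases, and Mmp1b had 4 counts or fewer in every MEF library. Mmp10 had 92, 1 and 53 counts in WT against 82, 33 and 27. Of the cluster genes with TGAGTCA in a stretch shown above, Mmp13 and Mmp3 were separated by genotype, and Mmp12, Mmp10 and Mmp1b overlapped. Mmp8 and Mmp27 have no TGAGTCA there and were separated. Mmp8 had 5 counts or fewer in every MEF library and, like Mmp1b, was too low to test. Of the pair of Mmp12 promoters only that of the second start has TGAGTCA. The part of the motif in the genotype differences was not tested.

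**Figure D4:**
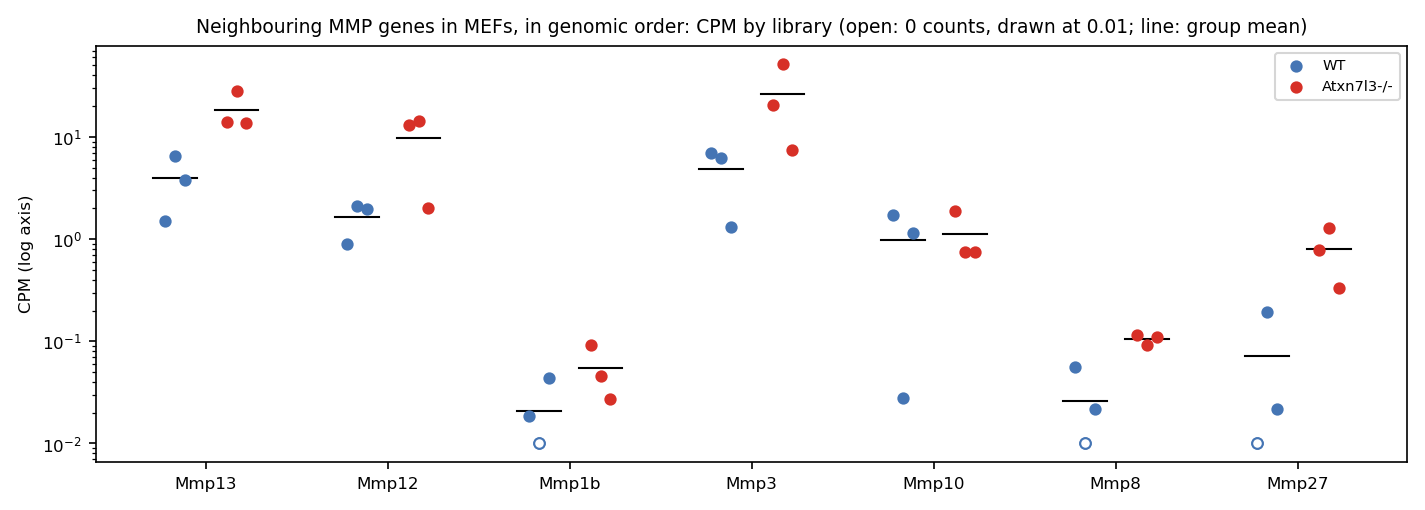
CPM on a log axis of the MMP genes of the chromosome 9 cluster in MEFs in their genomic order, WT in blue and Atxn7l3-/- in red, with open circles for 0 counts and lines at the group means. Mmp13, Mmp3, Mmp8 and Mmp27 have all Atxn7l3-/- libraries above the WT libraries, Mmp8 at 5 counts or fewer; Mmp12, Mmp1b and Mmp10 overlap.

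The inhibitors Timp2 and Timp3, the members with the highest means per kb in MEFs, were higher in every Atxn7l3-/- library than in any WT library but did not pass in edgeR. In CPM the mean of Lox was higher, at 2084 in WT and 4494 in Atxn7l3-/- MEFs. Timp3 had 2391, 1060 and 2056 CPM in WT and 5602, 3856 and 3319 CPM in Atxn7l3-/- MEFs (log2 fold change 1.21 ± 0.42, adjusted p = 0.108, edgeR). Timp2 had 1410, 1803 and 1815 CPM against 3164, 2295 and 2534 CPM (0.67 ± 0.29, adjusted p = 0.166, edgeR). Both passed in DESeq2, with adjusted p = 0.0185 for Timp3 and 0.0394 for Timp2. Timp1 lies on the X chromosome and overlapped, at 229 to 467 CPM in WT and 211 to 544 CPM in Atxn7l3-/- cells. Its highest WT value was in WT replicate 3, the one MEF library with much Xist (300 CPM, against 0.150 to 0.646 CPM in the others), and the part of this in the Timp1 level was not tested. Timp4 was near the floor, with 18, 44 and 9 counts in WT and 0, 1 and 1 counts in Atxn7l3-/- MEFs. Its WT to Atxn7l3-/- ratio was 32.5 (95% counting interval 8.67 to 274). The TIMP sum, 3252 to 4338 CPM in WT and 6361 to 9310 CPM in Atxn7l3-/- MEFs, was carried by Timp2 and Timp3. The span of each of the 4 TIMP genes overlaps that of another protein-coding gene, in the case of Timp3 by 49135 bases with Syn3. These are overlaps of whole gene spans, not of exons, and whether reads were shared was not tested.

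Among the lysyl oxidases, Lox and Loxl3 were separated by genotype in opposite directions. Lox had 1695, 2541 and 2018 CPM in WT and 4214, 4526 and 4742 CPM in Atxn7l3-/- MEFs. The Lox log2 fold change of 1.11 ± 0.31 did not pass in edgeR (adjusted p = 0.0693, or 0.0733 with the replicate block) and passed in DESeq2 (adjusted p = 0.000172). Loxl3 had 135, 217 and 256 CPM in WT and 37.7, 22.3 and 121 CPM without Atxn7l3 (-1.75 ± 0.63, adjusted p = 0.117, or 0.0497 with the replicate block, edgeR). For Loxl1, Loxl2 and Loxl4 the libraries of the genotypes overlapped, with Loxl4 at 27.8 to 69.5 CPM in WT and at 1.99, 1.51 and 65.8 CPM in Atxn7l3-/- MEFs. The Loxl4 value of Atxn7l3-/- replicate 3 was at the WT level.

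In mESCs, 1 of 38 members tested rose and 0 fell (edgeR; 15 and 3 at an unadjusted p under 0.05), where 6.96% of all genes passed, 3.08% as higher. It was Adamts7 (chr9:90163069-90208071), a protease that cleaves COMP, with 604 and 462 counts in WT and 1135, 1118 and 1752 counts in Atxn7l3-/- mESCs (log2 fold change 1.61 ± 0.31, adjusted p = 0.0322, edgeR). The count was 0 without WT replicate 1, WT replicate 2 or Atxn7l3-/- replicate 1, 2 without Atxn7l3-/- replicate 2 and 4 without Atxn7l3-/- replicate 3. DESeq2 called 10, 9 as higher and 1 as lower, against 19.7% of all genes. Libraries did not overlap for 19 members that were higher and 5 that were lower, beside 24.6% and 25.1% of all genes. The median log2 fold change of the members was 0.79, against 0.04 over all genes.

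Among members whose mESC libraries did not overlap, Adamts12, Loxl2 and Lox had the largest positive fold changes. In WT MEFs Lox was at 574 CPM per kb, Loxl2 at 197 and Adamts12 at 12.9. Of the members that led in WT MEFs, Timp3, Mmp2 and Mmp14 overlapped in mESCs, and Timp2 and Lox did not. Loxl2 had 1.22 and 5.18 CPM in WT and 13.1, 27.1 and 13.6 CPM in Atxn7l3-/- mESCs (2.48 ± 0.67, adjusted p = 0.0653, edgeR). Lox had 2.04 and 21.7 CPM in WT and 45.3, 92.7 and 56.7 CPM without Atxn7l3 (2.45 ± 0.86, adjusted p = 0.110, edgeR). Adamts12 had 4 and 19 counts in WT and 25, 106 and 49 counts in Atxn7l3-/- mESCs (2.56 ± 0.86, adjusted p = 0.102, edgeR), and had entered the test only through its Atxn7l3-/- counts. In all 3 genes WT replicate 1 was the lowest and Atxn7l3-/- replicate 2 the highest library. The summed fibroblast markers had the same extremes, with 29.2 and 109 CPM in WT and 319, 438 and 322 CPM in Atxn7l3-/- mESCs, of which 1 of 9 tested passed as higher in edgeR and 4 in DESeq2. All 9 had positive fold changes, with a median of 2.54 on the log2 scale, beside 9311 positive of 17800 genes tested. In the Atxn7l3-/- libraries the sum was carried by the collagen genes Col1a1 (165, 211 and 174 CPM), Col1a2 (96.7, 147 and 105 CPM) and Col3a1. These collagen genes and Prrx1 had the same extremes as the sum. Pdgfra, Pdgfrb, Thy1, Twist1, Dcn and Lum did not. Feeder cells had been present in the first passages of both genotypes, and the part of these markers in the Lox, Loxl2 and Adamts12 levels was not tested.

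Timp1 had 28.3 and 45.1 CPM in WT and 88.9, 88.3 and 61.8 CPM in Atxn7l3-/- mESCs (1.12 ± 0.28, adjusted p = 0.0561, edgeR). The 2 higher of these, Atxn7l3-/- replicates 1 and 2, were also the mESC libraries with the most Xist, at 58.3 and 51.0 CPM against 2.80 to 25.3 CPM in the others; its part in the level of the X-linked Timp1 was not tested. Adamts9, in contrast to most members, was lower, with 43.5 and 69.6 CPM in WT and 17.7, 27.0 and 30.1 CPM in Atxn7l3-/- mESCs (-1.18 ± 0.31, adjusted p = 0.0597, edgeR). Adamts6 (18 and 27 counts in WT, 5, 9 and 4 in Atxn7l3-/-) and the membrane-type Mmp24 (73 and 69 counts in WT, 11, 35 and 24 in Atxn7l3-/-) were lower as well without passing. Adamts6 had entered the test only through its WT counts. Of 12 MMPs tested in mESCs none passed in edgeR or DESeq2, where 6.96% and 19.7% of all genes passed. The libraries did not overlap for Mmp23 (higher) and for Mmp24 and Mmp25 (lower). Over all genes 24.6% were higher and 25.1% lower without overlap. Mmp2, Mmp9, Mmp11, Mmp12, Mmp14, Mmp15, Mmp17, Mmp19 and Mmp28 overlapped.

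**Figure D5:**
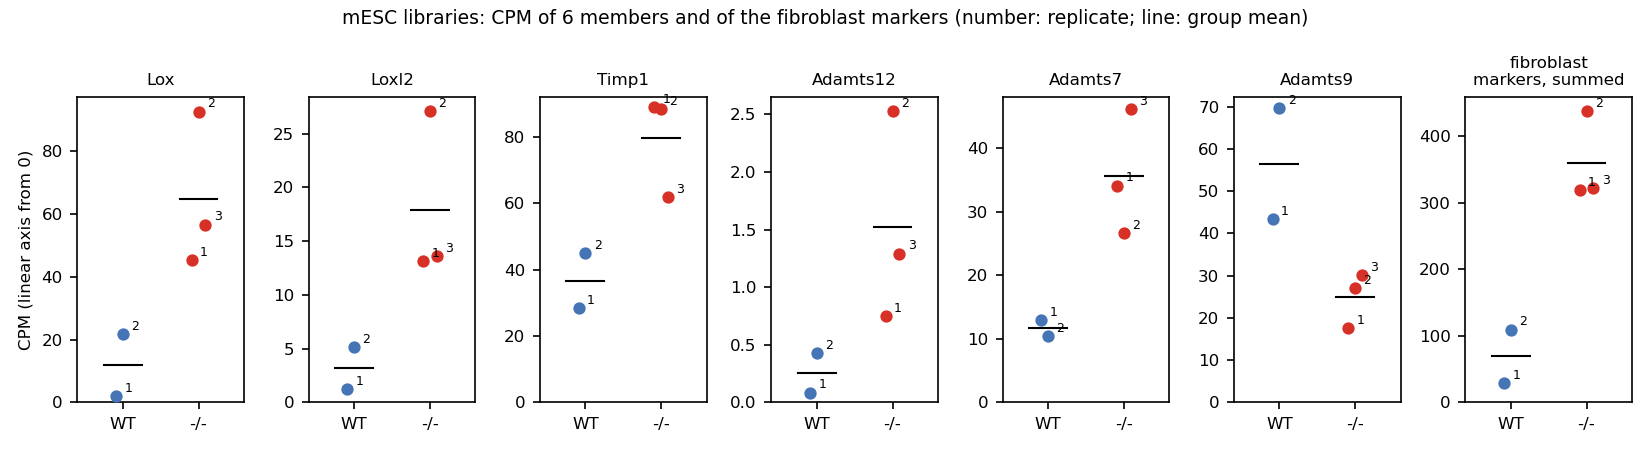
CPM in the 5 mESC libraries (linear axes from 0) of Lox, Loxl2, Timp1, Adamts12, Adamts7 and Adamts9 and of the summed fibroblast markers, with replicate numbers beside the points and lines at the group means. Lox, Loxl2, Adamts12 and the marker sum, carried in Atxn7l3-/- libraries by collagen genes, are lowest in WT replicate 1 and highest in Atxn7l3-/- replicate 2. Adamts9 is the one gene shown that is lower in all Atxn7l3-/- libraries.

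The genotype effect differed between MEFs and mESCs for 9 of 45 members tested, 8 with a more negative effect in MEFs and 1, Adamts9, with a more positive one (interaction in 1 fit of all 11 libraries, adjusted p of 0.05 or less, edgeR), where 11.4% of all genes passed. Adamts8 was the extreme case: its mESC libraries had 5.24 and 3.98 CPM in WT and 11.1, 12.1 and 10.3 CPM without Atxn7l3, while in MEFs it went to the floor (difference of log2 effects -8.63 ± 1.44, SE). Its neighbour Adamts15 had 2.47 and 1.27 CPM in WT and 4.0, 4.10 and 5.01 CPM in Atxn7l3-/- mESCs and likewise fell in MEFs. Adamts9 was lower in every Atxn7l3-/- mESC library than in either WT library and 1.10 higher on the log2 scale in MEFs, a difference of 2.36 ± 0.62 (adjusted p = 0.0362, edgeR). The count was 1 without WT mESC replicate 1, 2 without WT mESC replicate 2, 6 without Atxn7l3-/- mESC replicate 1 or 3, and 14 without Atxn7l3-/- MEF replicate 3.

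Other genes of matrix turnover were read from 4 lists, whose counts stand beside 9.41% of all genes passing in MEFs and 6.96% in mESCs (edgeR). Of genes that activate or restrain matrix proteases, 0 of 25 tested passed in MEFs (edgeR; 1 higher and 6 lower at an unadjusted p under 0.05, 6 lower in DESeq2), with a median log2 fold change of -0.93. With the replicate block 5 passed as lower. In mESCs 6 of 21 rose and 2 fell. Those that rose were led by Spock2, a testican proteoglycan (12.2 ± 1.22 to 34.7 ± 7.61 CPM, SD, n = 2 and 3), Thbs1, thrombospondin-1 (81.1 ± 6.37 to 212 ± 71.6 CPM), Ctsb, the lysosomal protease cathepsin B (304 ± 28.4 to 747 ± 114 CPM), and the endocytic receptor Lrp1 (121 ± 11.9 to 252 ± 65.0 CPM). The broad protease inhibitor A2m fell from 126 ± 99.5 to 5.64 ± 6.25 CPM and Spock1 from 0.976 ± 0.291 to 0.114 ± 0.0324 CPM. These mESC calls rested on single libraries: without WT replicate 1, WT replicate 2 or Atxn7l3-/- replicate 1, 0 genes of this list passed, and likewise 0 of the substrates and 0 of the elastic fibre partners.

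Of the matrix substrates, 2 of 21 tested fell in MEFs: the cartilage collagen Col2a1, from 390 ± 206 to 1.68 ± 0.966 CPM (log2 fold change -7.86 ± 0.82, adjusted p = 0.00827, edgeR), and the proteoglycan neurocan, Ncan, from 6.20 ± 1.73 to 0.247 ± 0.158 CPM (-4.64 ± 0.71, adjusted p = 0.0182, edgeR). With the block 5 passed, 4 as lower and 1, the small proteoglycan gene Dcn, as higher, and 5 passed without WT replicate 2, against 1 without WT replicate 3 or Atxn7l3-/- replicate 1. In mESCs 4 of 20 rose: Col1a1 (31.6 ± 29.3 to 184 ± 24 CPM), which is also one of the fibroblast markers, Bgn, Col5a1 and Nid1. Of the partners in elastic fibres and crosslinking, 2 of 26 rose in MEFs, Thsd4, an ADAMTS-like microfibril protein (log2 fold change 1.62 ± 0.39, adjusted p = 0.0491), and the collagen lysyl hydroxylase Plod2 (327 ± 65.6 to 648 ± 34.2 CPM, adjusted p = 0.0498, edgeR), and the median over the list was -1.16. With the block 2 passed as higher and 3 as lower, and DESeq2 called 3 higher and 6 lower. Of the 26, 10 passed without Atxn7l3-/- replicate 3 and 0 without any other 1 MEF library. In mESCs 6 of 26 rose, led by Postn, Fbln2, Bmp1 and Fbln1. Of the AP-1 and ETS factors 0 of 12 passed in either cell type (edgeR; at an unadjusted p under 0.05, 2 were lower in MEFs, and 1 was higher and 4 were lower in mESCs). With the block Junb passed as lower in MEFs (-2.12, adjusted p = 0.0249) and DESeq2 called 2 in MEFs and 4 in mESCs.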

How the data were processed

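The RNA of 5 mESC and 6 MEF samples was sequenced from poly(A)-selected, stranded libraries. Per the labels, the authors used bcl2fastq 2.17.1.14, cutadapt 1.10, STAR 2.5.3a (mm10), HTSeq 0.6.1p1 and DESeq2 1.16.1, and deposited raw read counts per gene, a normalized signal (count divided by a size factor) and that signal divided by the median transcript length. The deposited columns of the authors' own fold changes and p-values were not used.

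The raw counts went into edgeR 4.0.16 under R 4.3.3 (filterByExpr, TMM, quasi-likelihood test), within each cell type (17800 genes in mESCs, 15958 in MEFs) and in 1 fit of all 11 libraries (19326 genes). The Benjamini-Hochberg adjustment ran over every gene tested in a fit, with a threshold of 0.05. SE is that of the log2 fold change. Overlap of libraries was read in CPM. Counting intervals are exact at 95% and cover counting error only. The scripts were tested on simulated data. Alternatives were DESeq2 1.42.0, other size factors, filters of no or 10 counts, GC correction, the replicate number as a block, the study's selection (2-fold change, 10 deposited normalized reads per kb) and leaving out each library.

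Replicate numbers stand in the sample titles, which do not say what they mark. In MEFs the deviations from group means of same-numbered WT and Atxn7l3-/- samples correlated in all 3 pairs. Across genes r was 0.473, 0.161 and 0.240, and -0.262 to 0.0516 for other pairs. The main MEF test took no account of this pairing, and the replicate number entered only as a block in alternative fits. The members and gene lists were chosen with earlier results of these data known. Text-named members were those that passed a genotype or interaction test, the 3 with the largest changes each way without overlap, the highest of each family and all TIMP and LOX genes, and of the lists up to 4 called genes a direction. Other members named with values, such as Adamts5, Mmp12, Mmp14 and Adamts18, were chosen after their values were seen. P-values measure the spread between these samples, each a line or culture of 1 embryo.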

Additional observations from a re-analysis of the deposited data

Results flagged for a closer look

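The genotype effect differed between MEFs and mESCs for 9 members, by the interaction of genotype and cell type in 1 fit of all 11 libraries (edgeR, adjusted p of 0.05 or less); values are log2 effect in MEFs minus log2 effect in mESCs. Adamts8 differed by -8.63 (adjusted p = 0.00795), Adamts17 by -6.05 (0.0305), Adamts15 by -5.49 (0.0178), Adamts4 by -4.69 (0.0148) and Adamtsl3 by -4.34 (0.00607) (edgeR). Adamtsl4 differed by -3.64 (adjusted p = 0.0116), Mmp17 by -2.82 (0.0255), Adamts10 by -2.78 (0.0213) and Adamts9 by 2.36 (0.0362) (edgeR). Adamts9, Adamts10 and Adamts17 had passed in neither cell type alone. With the replicate block Adamts17 (adjusted p = 0.0807) and Mmp17 (0.0700) no longer passed and Mmp15 did (0.0195); with GC correction Mmp17 did not (0.145, edgeR). Of the 11 fits that each left out 1 library, Adamtsl3 passed in 11, Adamts4, Adamts8, Adamts10, Adamts15 and Adamtsl4 in 9, Mmp17 in 6, Adamts17 in 5 and Adamts9 in 2. Mesothelial and smooth muscle marker sums differed by genotype in MEFs, and their part in these differences was not tested.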

How the results depend on the processing

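Among 110 fold changes of the members named by the rule, over all comparisons, no direction changed and 1 further value passed with the other size factors, and no direction changed and 19 further values passed with DESeq2. The number of members that passed in mESCs, 1 in edgeR, was 8 without a filter on low counts and 10 in DESeq2, and ran from 0 to 4 when 1 library was left out. In MEFs it was 13 without a filter, 4 with at least 10 counts in every library, 21 in DESeq2 and 14 in 1 fit of all 11 libraries, against 8, and ran from 1 to 12 when 1 library was left out. The members that differed between WT MEFs and WT mESCs came to 20 with at least 10 counts in every library, where fewer members were tested, against 32. Over the same fits that left out 1 library, the interaction count ran from 1 to 14 and that of the WT comparison from 25 to 34. In DESeq2 11 substrates, 10 elastic fibre partners and 4 AP-1 and ETS factors passed in mESCs, and 6 protease regulators, 4 substrates, 9 elastic fibre partners and 2 AP-1 and ETS factors in MEFs. When 1 library was left out, the list counts ran in mESCs from 0 to 8 (protease regulators), 0 to 7 (substrates), 0 to 5 (elastic fibre partners) and 0 to 2 (AP-1 and ETS factors), and in MEFs from 0 to 2, 1 to 5, 0 to 10 and 0 to 1.

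The replicate number as a block gave 12 members in MEFs, 8 in the interaction and 35 in the WT comparison. With the block, 5 protease regulators, 5 substrates, 5 elastic fibre partners and 1 AP-1 or ETS factor passed in MEFs. In mESCs same-numbered samples shared only a number (r = 0.00777 and -0.172 across genes); there the block gave 6 members, also together with GC correction, 11 substrates, 1 AP-1 or ETS factor and 5 fibroblast markers.

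Some directions turned, all for values that passed neither before nor after. With at least 10 counts in every library, Adamts1 in MEFs was at -0.012 and Adamts9 between the WT cell types at -0.024 (log2 fold change), and with the replicate block at -0.0085 and -0.054. Adamtsl4 in mESCs was at -0.029 with the block, at -0.13 with GC correction and at -0.14 with both. With GC correction, then with GC correction and the block, MEF values were 0.57 and 0.73 for Loxl1, 0.19 and 0.14 for Mmp11, and 0.37 and 0.45 for Mmp24, interaction values 0.14 and 0.15 for Loxl1, 0.20 and 0.016 for Mmp11, and 0.35 and 0.33 for Timp2, and Adamts9 between the WT cell types was at -0.13 and -0.17. The Adamts7 interaction was 0.11 with both. Leaving out 1 library gave MEF values from -0.29 to 0.31 for Adamts1, -0.10 to 0.91 for Mmp2 and -0.64 to 0.34 for Mmp24, and mESC values from -0.20 to 0.56 for Adamtsl4, -0.37 to 1.36 for Loxl4, -0.026 to 0.36 for Mmp11, -0.49 to 0.67 for Mmp2 and -0.19 to 0.42 for Timp3. Interaction values ran from -2.14 to 0.33 for Adamts6, -2.50 to 3.11 for Mmp13, -0.43 to 0.98 for Mmp2 and -0.36 to 0.12 for Timp2, and Adamts9 between the WT cell types from -0.33 to 0.42. The cause was not tested. Low counts kept 12 members in mESCs and 9 in MEFs from being tested.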
